A study of Rattus norvegicus with 8 samples.

Results

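S100a4, S100a10 and S100b are 3 genes of the S100 family, which encodes small proteins with paired EF-hand motifs, most of which bind calcium. Their transcripts were followed in the spinal cord of rats with and without a spinal cord injury. The 3 genes were taken by their Ensembl identifiers (ENSRNOG00000011821, ENSRNOG00000023226 and ENSRNOG00000001295), and all 3 were present among the 32883 identifiers of the count table. They were chosen with the difference between injured and uninjured cord already known, so that difference is given below as a description, without a test. The 8 libraries came from Sprague Dawley rats, an outbred laboratory strain with no age or sex in the labels. In 4 of them the cord had been cut on one side (hemisected) at thoracic level 9 and was collected after 4 days, and the other 4 were from rats without spinal cord injury. The labels name no genotype or drug for either group and do not say whether uninjured rats had sham surgery or whether animals were pooled. The tissue is upper lumbar cord by the series title but upper spinal cord by the sample labels. The question put by the design is how transcripts of the sampled cord differ between rats with and without the injury. Whether the sampled cord was itself free of damage was not tested.

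S100 proteins work as dimers that change shape on binding calcium and then dock on target proteins inside the cell, and several are also released and act on neighbouring cells. S100a4 binds non-muscle myosin and is known from motile cells, fibroblasts, leukocytes and astrocytes of white matter. S100a10, also called p11, has lost the ability to bind calcium and acts as the partner of the annexin Anxa2 at membranes, where the complex carries channels and receptors to the surface and helps to activate plasminogen. S100b is an abundant calcium-binding protein of astrocytes and of part of the oligodendrocyte lineage, and its release into fluid is used as a sign of injury to nervous tissue.

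The RefSeq promoter table used here matched 2 of the 3 members, S100a4 and S100b, and not S100a10. The sequence just upstream of the start is shown for both matched members, so that a gene whose groups lay apart and one whose groups overlapped can be set side by side. Each line holds the 250 bases before the annotated start in RefSeq's GRCr8 assembly, on the strand of the gene, a later assembly than the Rnor_6.0 on which the counts were made. S100a4 lies at chr2:178388279-178388528 on the plus strand and S100b at chr20:12381082-12381331 on the minus strand. Capitals mark matches to any of the motifs searched.
S100a4: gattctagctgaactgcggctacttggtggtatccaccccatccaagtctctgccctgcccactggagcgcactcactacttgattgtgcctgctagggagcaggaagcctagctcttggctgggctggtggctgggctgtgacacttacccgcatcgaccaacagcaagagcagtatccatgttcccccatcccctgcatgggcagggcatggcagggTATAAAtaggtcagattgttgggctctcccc
S100b: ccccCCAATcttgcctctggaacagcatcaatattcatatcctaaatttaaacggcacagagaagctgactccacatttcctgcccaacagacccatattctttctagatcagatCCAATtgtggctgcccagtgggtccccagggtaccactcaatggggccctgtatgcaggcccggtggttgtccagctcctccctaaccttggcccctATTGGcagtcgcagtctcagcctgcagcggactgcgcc
Both strands were searched for TATAAA, the letters of a TATA box. The CCAAT box was searched as CCAAT and the GC box as GGGCGG. The motif of AP-1 was searched as TGANTCA and that of STAT factors as TTCNNNGAA. No match overlapped another. The S100a4 window held 1 match, TATAAA on the gene's strand from 31 to 26 bases before the start, a motif present in 12.9% of the 33469 upstream windows in the RefSeq table. The S100b window held no TATAAA but 3 matches to CCAAT, 2 on the gene's strand beginning 246 and 135 bases before the start and 1 on the other strand 38 to 34 bases before it. CCAAT was present in 34% of all windows. The letters of the GC box (30.5% of windows), the AP-1 motif (6.34%) and the STAT motif (7.67%) were found in neither window. The shares count windows with at least 1 match anywhere on either strand. They take no account of the place, strand or number of matches. The matches describe letters only. In the same annotation no other gene overlaps S100a4, whose neighbour S100a5 belongs to the same family, while S100b overlaps Dip2a at its 3' end and S100a10 has a pseudogene, S100a10-ps1. Because the libraries read 3' ends and no use of strand is stated, reads of S100b and Dip2a may not be told apart in the counts, and reads of S100a10 may be shared with its pseudogene, so both values carry this uncertainty.

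S100a4 was the member that stood furthest apart after injury. Injured libraries 1 to 4 held 423, 618, 301 and 341 UMIs (unique molecular identifiers, the random tags that count transcripts), or 1550, 1930, 1187 and 1748 CPM (counts scaled to the library total). Uninjured libraries 1 to 4 held 51, 25, 49 and 55 UMIs, or 230.6, 222.7, 364.3 and 404.4 CPM. The groups did not overlap, and the lowest injured library was 2.93 times the highest uninjured one. The injured mean was 1604 ± 318 CPM and the uninjured mean 305.5 ± 92.6 CPM (SD, n = 4). In the edgeR fit over all genes the log2 fold change was 2.25 (SE 0.27), a 4.75-fold difference that ranked 13 from the top among the 3073 genes tested. Among these genes S100a4 moved from rank 504 by level in uninjured cord to rank 67 in injured cord. In bulk libraries such as these, more (or fewer) cells of a type and more (or less) RNA per cell cannot be told apart.

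S100a10, the annexin partner, was a much scarcer transcript that also lay higher after injury. Injured libraries 1 to 4 held 81, 87, 43 and 46 UMIs, or 296.8, 271.7, 169.5 and 235.8 CPM. Uninjured libraries 1 to 4 held 21, 10, 10 and 9 UMIs, or 95, 89.1, 74.4 and 66.2 CPM. Again the groups did not overlap, with the lowest injured library (number 3) at 1.79 times the highest uninjured one (number 1). The injured mean was 243.5 ± 55.3 CPM and the uninjured mean 81.1 ± 13.2 CPM (SD, n = 4). The log2 fold change was 1.45 (SE 0.27, edgeR), a 2.73-fold difference at rank 60 of 3073. By level S100a10 stood at rank 1870 in uninjured and at rank 713 in injured cord. With 9 to 21 UMIs per uninjured library, the exact Clopper-Pearson 95% intervals of those single values had half-widths of 45.5% to 72% of the value. For S100a4 they were 27.4% to 41.4% in uninjured and 7.96% to 11.5% in injured libraries. Counting error thus weighs more in the uninjured S100a10 values than in those of S100a4, whose uninjured values also carry a wide one.

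S100b, the glial member, showed no such separation. Injured libraries 1 to 4 held 208, 243, 333 and 228 UMIs, or 762.2, 758.9, 1313 and 1169 CPM. Uninjured libraries 1 to 4 held 224, 78, 173 and 166 UMIs, or 1013, 694.8, 1286 and 1221 CPM. The groups overlapped over most of their range, and libraries 3 and 4 were the highest in both. The injured mean was 1001 ± 283 CPM and the uninjured mean 1054 ± 266 CPM (SD, n = 4). The log2 fold change was -0.21 (SE 0.27, edgeR), with a 95% interval from -0.78 to 0.36 in a fit that leaves out the library number. That interval leaves room for a fold between 0.582 and 1.28 and does not show that the level was equal. With the number as a block, as given below, the SE was smaller, at 0.13. S100b stood at rank 107 by level in uninjured and at rank 126 in injured cord.

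**Figure D1:**
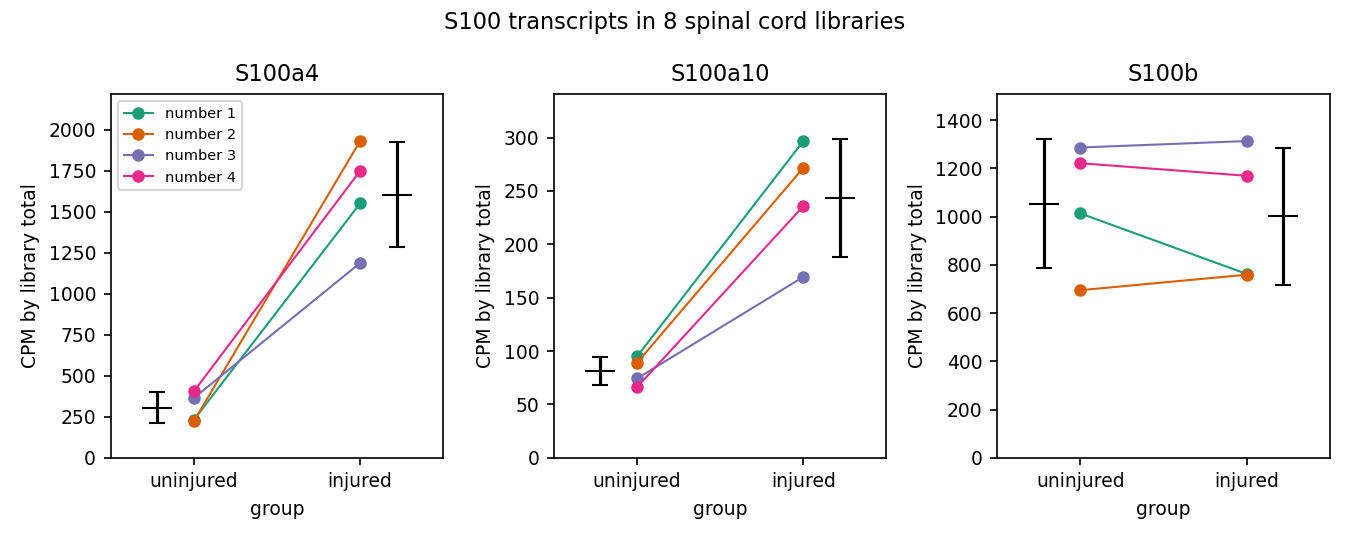
CPM by library total (vertical axis, from 0) for S100a4, S100a10 and S100b in uninjured and injured cord. Each point is 1 library, lines join libraries that share a replicate number, and black bars give the mean and SD of 4 libraries. All 4 injured libraries lie above all 4 uninjured ones for S100a4 and S100a10, while for S100b the groups overlap.

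Thus 2 of the 3 members lay higher in every injured than in every uninjured library, and 0 lay lower in every one. Of all 3073 tested genes, 7.52% were separated in the upward direction and 1.46% in the downward direction. The members were chosen on this contrast, so nothing is read from their share. The median log2 fold change of all tested genes was -0.03, with quartiles of -0.30 and 0.27. Together the 3 transcripts took 0.285% ± 0.0254 of all UMIs in injured and 0.144% ± 0.0338 in uninjured cord (SD, n = 4). With library totals as the only scaling, which moved the median of all genes from -0.03 to 0.09, the log2 fold changes were 2.40 for S100a4, 1.57 for S100a10 and -0.08 for S100b.

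**Figure D2:**
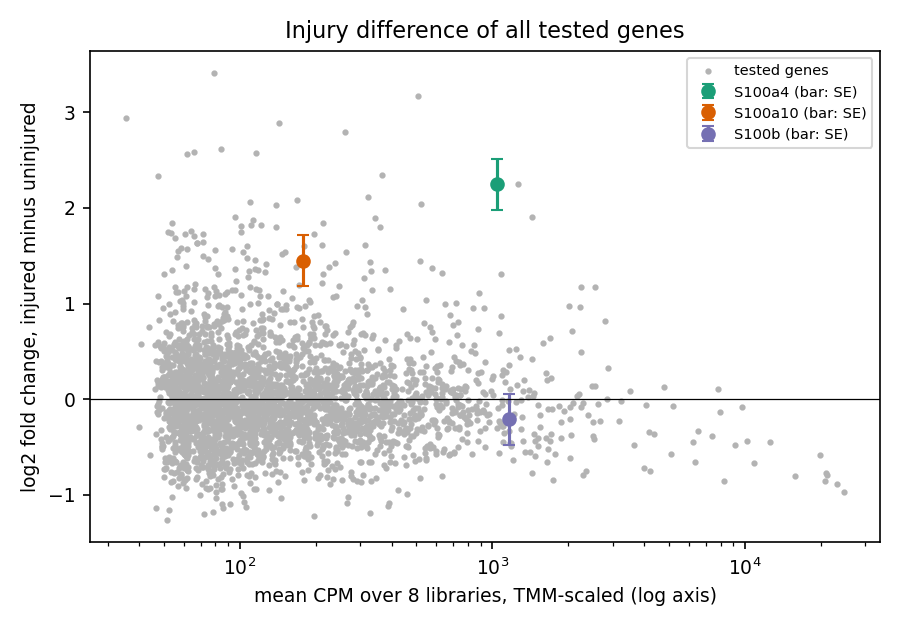
Log2 fold change of injured minus uninjured cord (vertical axis) against mean TMM-scaled counts CPM over the 8 libraries (horizontal log axis) for the 3073 tested genes, in grey. S100a4 at 2.25, S100a10 at 1.45 and S100b at -0.21 are drawn with bars of 1 SE.

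Ratios of 2 transcripts within a library do not depend on how libraries are scaled. CEL-Seq2 takes 1 tag from the 3' end of each transcript, so the counts are not divided by length, although capture can differ between genes. In uninjured libraries 1 to 4 the ratio of S100a4 to S100b UMIs was 0.228, 0.321, 0.283 and 0.331, and S100b was the higher in each, beyond the counting interval. In injured libraries 1 to 4 that ratio was 2.03, 2.54, 0.904 and 1.5. S100a4 was thus above S100b beyond the counting interval in 3 of 4 injured libraries, and in injured library 3 the interval of 0.771 to 1.06 included equal counts. The mean ratio was 1.74 ± 0.703 in injured and 0.291 ± 0.0467 in uninjured cord (SD, n = 4).

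S100a10 was the lowest of the 3 transcripts in all 8 libraries. Its ratio to S100b was 0.389, 0.358, 0.129 and 0.202 in injured libraries 1 to 4, and 0.0938, 0.128, 0.0578 and 0.0542 in uninjured libraries 1 to 4. The lowest injured ratio, in library 3, thus only just exceeded the highest uninjured one, in library 2. The ratio of S100a4 to S100a10 was 5.22, 7.1, 7 and 7.41 in injured libraries and 2.43, 2.5, 4.9 and 6.11 in uninjured libraries. These ranges overlapped, since uninjured library 4 lay above injured library 1.

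Libraries of the 2 groups share the numbers 1 to 4 in their titles. Over the tested genes, deviations from the group means correlated between libraries of the same number (Pearson r of 0.297 to 0.423). The difference was therefore also taken within each number. For S100a4 the injured library held 6.72, 8.67, 3.26 and 4.32 times the uninjured share in numbers 1 to 4. The ratios were larger in numbers 1 and 2, whose uninjured libraries had the lowest S100a4 levels. Since the uninjured share is the divisor, a low value there raises the ratio by construction, and no relation between level and response is read from this. With 1 library per group in each number, a difference between numbers in the response could not be tested.

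For S100a10 the within-number ratios were 3.13, 3.05, 2.28 and 3.56, with the lowest in number 3 as for S100a4. For S100b they were 0.753, 1.09, 1.02 and 0.957. These ratios split the same contrast that chose the genes and are descriptions, each from 1 library per group. With the number as a block, the log2 fold changes were 2.26 (SE 0.18) for S100a4, 1.46 (SE 0.23) for S100a10 and -0.22 (SE 0.13) for S100b, so that the values moved little while each SE became smaller.

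**Figure D3:**
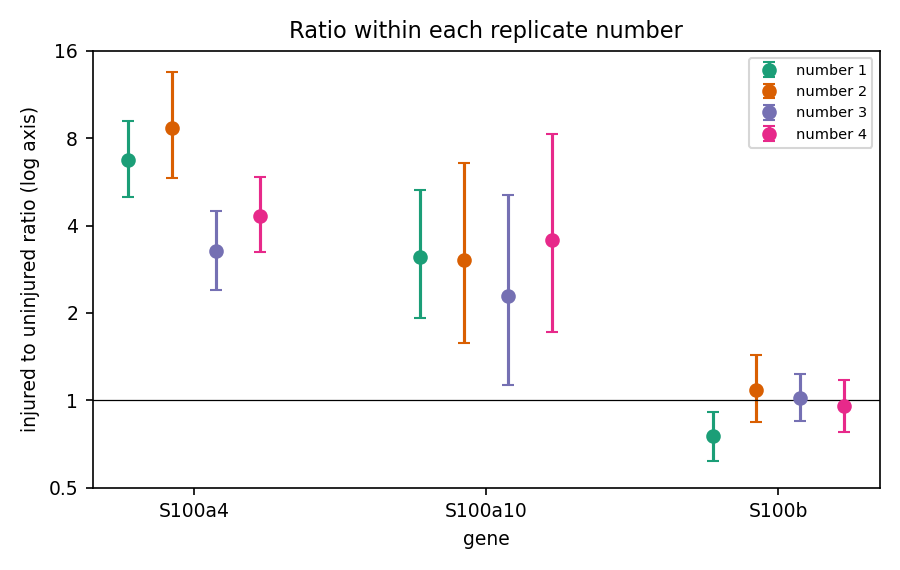
Ratio of the injured to the uninjured share of UMIs within each replicate number (vertical log axis) for the 3 genes, with bars for the 95% counting interval, which leaves out the spread between animals. S100a4 ranges from 3.26 to 8.67, S100a10 from 2.28 to 3.56, and S100b from 0.753 to 1.09.

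The number itself played no part in the choice of the genes, so it was tested. With the group in the model, S100b differed between numbers (edgeR quasi-likelihood F test over all genes, adjusted p = 0.00239), as did 15.3% of the 3073 genes tested. Relative to number 1, its log2 level was -0.20 in number 2, 0.71 in number 3 and 0.62 in number 4. The range between the lowest and highest number was 1.89-fold, or 0.92 in log2, against a median of 0.74 over all tested genes. Deviations from the group mean were -0.39, -0.41, 0.46 and 0.34 in injured libraries 1 to 4 and -0.17, -0.57, 0.39 and 0.35 in uninjured libraries 1 to 4. In both groups numbers 1 and 2 lay below the mean and numbers 3 and 4 above it, with a gap of 0.51 between the sets. S100b kept its call in each of the 11 alternative fits (10 by edgeR and 1 by DESeq2), with adjusted p from 0.000296 to 0.029. No label says what the numbers stand for, so a source for this difference cannot be named.

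S100a4 and S100a10 did not pass that test (edgeR adjusted p = 0.316 and 0.48), with a log2 range between numbers of 0.57 for each, against a median of 0.74 over all tested genes. Deviations of S100a4 were -0.07, 0.23, -0.38 and 0.22 in injured and -0.49, -0.41, 0.36 and 0.54 in uninjured libraries 1 to 4. Numbers 2 and 3 thus lay on opposite sides of the mean in the 2 groups. Deviations of S100a10 were 0.26, 0.12, -0.44 and 0.06 in injured and 0.08, 0.12, -0.04 and -0.16 in uninjured libraries, with number 3 below the mean in both. A miss in this test does not show that these genes were equal between numbers.

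**Figure D4:**
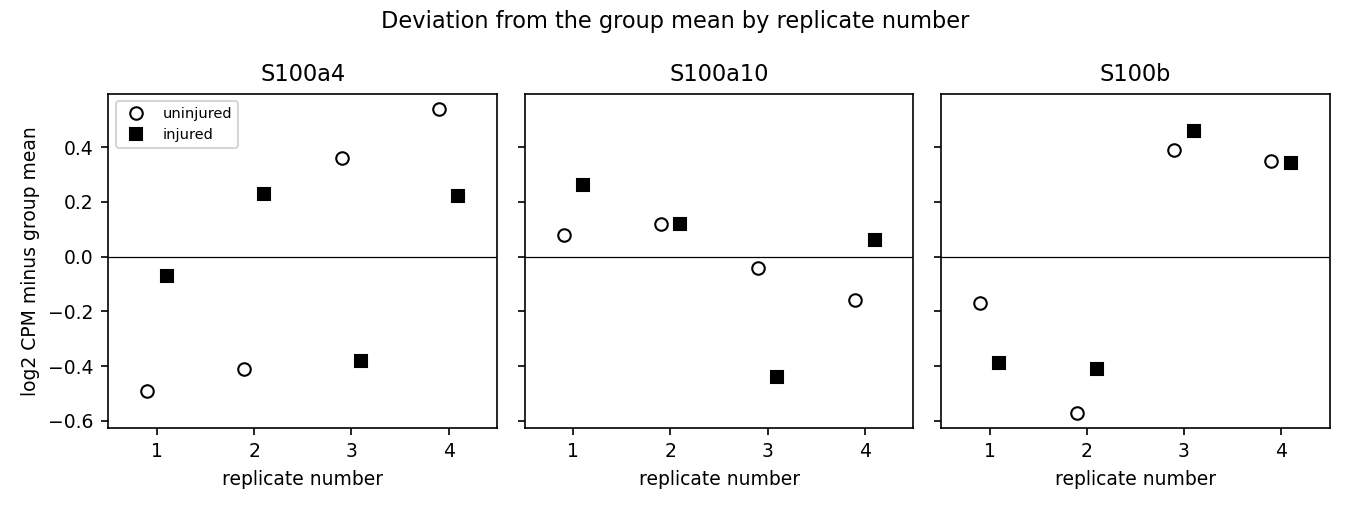
Deviation of log2 CPM from the mean of its group (vertical axis) by replicate number for uninjured (open circles) and injured (filled squares) libraries. For S100b, numbers 1 and 2 lie below and numbers 3 and 4 above the mean in both groups, while for S100a4 numbers 2 and 3 have opposite signs in the 2 groups.

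The spread within groups was set against the spread that counting alone gives. For S100a4 the variance was 17.1 times the counting variance in injured and 4.22 times in uninjured libraries. For S100b it was 21.8 times in injured and 8.12 times in uninjured libraries. S100a10 stayed nearer to counting noise than these genes, at 3.27 times in injured and 0.339 times in uninjured libraries. The medians over all tested genes were 2.16 in injured and 1.76 in uninjured libraries. The injured value of S100a10 thus lay above the median. Where libraries differ beyond counting, such multiples grow with the count, so those of S100a10 are not directly comparable with those of the more abundant genes. A low count brings the multiple toward the counting variance, not below it. The uninjured value of 0.339 lay below the counting variance and comes from few libraries with 9 to 21 UMIs.

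Whether the 2 genes that lay higher after injury varied together around their group means could not be settled with 8 libraries. Between S100a4 and S100a10 Pearson's r was 0.00221 (exact permutation within groups, two-sided p = 0.991, n = 8) and Spearman's rho was -0.262 (exact permutation p = 0.42, n = 8). Without uninjured libraries 1 and 2, the farthest from the median of S100a4, r was 0.647, so the value rests on those libraries. The permutation took no account of the replicate numbers. No pooled correlation is given for S100b, whose libraries form the 2 sets of numbers just described, 4 in each and too few for a value within a set.

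Among 2967 other genes with a mean count of at least 10, the one most like S100a4 and the one most like S100a10 in deviations from the group means were sought over the 8 libraries. For S100a4 it was ENSRNOG00000000498 (Pearson r of 0.946), which had a log2 fold change of 0.42 (SE 0.23) after injury. For S100a10 it was ENSRNOG00000060956 (0.960), with a log2 fold change of 0.02 (SE 0.25). The count of genes with an r over 0.9 was 9 for S100a4 and 13 for S100a10. For S100b no such gene is named, because its libraries form 2 sets by number. With so many genes and so few libraries, high values arise readily, and these are descriptions only.

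Library totals ran from 112264 to 221177 UMIs in uninjured and from 195113 to 320199 in injured libraries. When all libraries were thinned to 112264 UMIs, the log2 fold changes were 2.31 for S100a4, 1.39 for S100a10 and -0.22 for S100b. The files do not pair identifiers with gene names, so other S100 genes, Anxa2 and marker genes of astrocytes, microglia, fibroblasts or infiltrating leukocytes were not analysed here, and the labelled tissue was not checked against its markers. The part that a different mix of cells plays in these differences was not tested.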

How the data were processed

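RNA was measured in 8 rat spinal cord libraries, made by CEL-Seq2 on an Illumina HiSeq1500 per the labels' protocols. The authors deposited 1 table of raw, unscaled UMI counts for each Ensembl gene and library. HISAT2 2.0.4 and HTSeq 0.6.0 were used with build Rnor_6.0, per the submitters' processing notes. Not given in the sources used here: annotation, UMI length, strand setting and read filters. The largest count of any gene was 3727 to 4047 in all 8 libraries whatever their total, just below the 4096 tags that 6 bases allow. Counts of the most abundant genes, and so the library totals, may therefore be too low. With the correction for collisions among 6-base tags, the log2 fold changes were 2.32 for S100a4, 1.45 for S100a10 and -0.20 for S100b. Groups came from the group label, replicate numbers from the titles, and 0 columns were left unmatched. Of 32883 identifiers, 0 were found in the GRCr8 gene table of RefSeq, so the 3 genes were found by the identifiers given for them and the gene lists and markers that had been set out were not applied.

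Members, lists and tests were chosen with earlier results of these data known. In R 4.3.3 with edgeR 4.0.16, filterByExpr (minimum count 10, minimum total 15) kept 3073 genes with 89% of counts, including all 3 members. Counts were scaled by TMM and fitted with glmQLFit and glmQLFTest, with adjustment by Benjamini-Hochberg over all tested genes and a threshold of 0.05. SE is the log2 fold change over the square root of F. Levels are CPM by library total, while deviations use TMM-scaled log2 CPM with a prior count of 2. The fits were tested on simulated counts with known changes. The number test found 48.4% of 2-fold and 98.9% of 4-fold changes, so it misses many changes of 2-fold size. The injury fit found 74% and 100%. Its simulated counts took their spread from a fit with the number in the model and held no difference between numbers. The main injury fit leaves the number out and had a larger SE for all 3 members than the fit with the block. The shares of 74% and 100% may therefore be too high for it. Of the calls made, 2.27% to 5.63% were false, against the threshold of 0.05. Correlations were planned for all 3 pairs of members, and only the 1 pair without S100b is given. S100b was left out because its libraries split by number in both groups. S100a4 split by number in uninjured libraries only, with deviations of -0.49 and -0.41 in numbers 1 and 2 and 0.36 and 0.54 in numbers 3 and 4. Besides the 3 members, the rule for named genes took the 1 gene with the highest Pearson r to each. That gene is left out for S100b because of its split by number in both groups. That libraries of a group are separate animals is not stated, so p-values cover the spread among these libraries alone, and that spread may be technical. The numbers were taken as pairs because same-number correlations of deviations from the group means over 3073 genes were 0.389, 0.297, 0.342 and 0.423. Correlations between libraries of different numbers were not computed, so other ways of pairing were not compared. The pairing comes from the titles and the data, and no label states it. Single values have exact Clopper-Pearson 95% intervals, whose half-width ran from 7.96% to 72% of the value. They cover counting error only.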

Additional observations from a re-analysis of the deposited data

How the results depend on the processing

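The log2 fold changes of the 3 genes were recomputed under 16 alternatives each: total counts as the only scaling, DESeq2 1.42.0, limma-voom (limma 3.58.1), no filter on low counts, the replicate block with either scaling, thinning (median of 11 draws), a correction for collisions among 6-base tags, and leaving out each library. Values ran from 2.06 to 2.45 for S100a4, from 1.35 to 1.57 for S100a10 and from -0.38 to -0.08 for S100b, and none moved by more than the SD within groups. These extremes came from leaving out 1 library, except that 1.57 for S100a10 was also reached with total counts, and -0.08 for S100b likewise. With the replicate block the values were 2.26, 1.46 and -0.22. The test between numbers had 11 alternatives per gene, and none changed a call. Leaving out 1 library gave adjusted p from 0.000363 to 0.029 for S100b, 0.105 to 0.508 for S100a4 and 0.451 to 0.951 for S100a10 (edgeR). The correlation of S100a4 with S100a10 changed sign with total counts (r of -0.0492) and with a prior count of 0.5 (-0.0178), and rose to 0.647 without 2 libraries. Depth limits S100a10 most, with 9 to 21 UMIs per uninjured library.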
